A study of Mus musculus with 9 samples.

Results

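A set of 9 transcription factors that direct the identity and maturation of the epidermis was followed in *Supt6*-KO and control mouse skin by bulk RNA-Seq. They were chosen by name: *Trp63*, *Klf4*, *Grhl1*, *Grhl3*, *Ovol1*, *Zfp750*, *Prdm1*, *Gata3* and *Tfap2a*, which make up 9 of the 17943 genes in the count table. All 9 passed the filter on low counts, as did 16426 genes in all, and no member had fewer than 384 counts in any mouse.

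The series holds 5 control and 4 *Supt6*-KO mice. The control mice were *Supt6* fl/fl animals injected with corn oil. The *Supt6*-KO mice were K14-CreERT; *Supt6* fl/fl animals injected intraperitoneally with tamoxifen. All 9 mice thus carried the floxed *Supt6* allele on both chromosomes, and skin was taken on day 10 after the last injection. The study describes the sequenced *Supt6*-KO skin as lesional and the control skin as matched to it. The injections were given in the first telogen, a resting phase of the hair cycle. *Supt6* encodes SPT6, a histone chaperone that travels with RNA polymerase II along transcribed genes. The Cre recombinase was driven by the Keratin 14 promoter, which is active in basal keratinocytes and other stratified epithelia, so fibroblasts, vessels and immune cells of the same skin kept the gene. Because only the *Supt6*-KO mice carried Cre and only they received tamoxifen, the effects of the deletion, of Cre and of the drug cannot be told apart. The age of the mice in days and their sex were not given in the sources used here. The sample labels name the tissue as ear and the controls as WT, whereas the study's methods name dorsal skin. Markers of cartilage, a tissue of the ear, were detected in every mouse. The 4 of 5 listed genes that passed the filter summed to between 210 and 547 CPM in the controls. In *Supt6*-KO skin they summed to between 37.3 and 47.5 CPM, with *Acan* the most abundant of them. Depth was nearly even, with 29627341 to 30491197 estimated counts per control library and 30597189 to 30967107 per *Supt6*-KO library.

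The epidermis is renewed from a basal layer whose cells leave the basement membrane, stop dividing and mature through spinous and granular layers into dead cornified cells. p63, the product of *Trp63*, is the master regulator of stratified epithelia and is needed both for basal cell renewal and for the entry into differentiation. AP-2α (*Tfap2a*) and GATA3 are expressed in keratinocytes alongside p63, and GATA3 also specifies the inner root sheath of the hair follicle and several lymphocyte lineages. KLF4, ZNF750 (*Zfp750* in the mouse), the Grainyhead-like factors GRHL1 and GRHL3, OVOL1 and BLIMP1 (*Prdm1*) act in the suprabasal layers, where they promote barrier formation, arrest of growth or the last steps of cornification.

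For 3 of the 9 genes the upstream sequence is shown, because they mark the ends of the pattern: *Gata3* had the largest fall, *Prdm1* the largest rise and *Klf4* the highest level. Each stretch holds the 250 bases before a transcription start of RefSeq (GRCm38.p6), written 5′ to 3′ on the strand of the gene, which is the reverse strand for all 3. The stretches are chr2:9878601-9878850 for *Gata3*, chr10:44458749-44458998 for *Prdm1* and chr4:55532476-55532725 for *Klf4*. Capitals mark letters that match a searched motif.
*Gata3*: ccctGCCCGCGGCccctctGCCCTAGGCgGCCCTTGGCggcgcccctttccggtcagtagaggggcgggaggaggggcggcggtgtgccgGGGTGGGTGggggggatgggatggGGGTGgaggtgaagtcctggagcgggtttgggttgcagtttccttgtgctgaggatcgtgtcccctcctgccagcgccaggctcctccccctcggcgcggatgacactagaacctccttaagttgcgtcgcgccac
*Prdm1*: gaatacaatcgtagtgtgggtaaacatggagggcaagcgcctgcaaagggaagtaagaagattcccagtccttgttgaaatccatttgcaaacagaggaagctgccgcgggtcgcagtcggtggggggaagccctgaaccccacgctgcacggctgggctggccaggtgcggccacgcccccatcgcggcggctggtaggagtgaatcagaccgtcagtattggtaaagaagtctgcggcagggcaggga
*Klf4*: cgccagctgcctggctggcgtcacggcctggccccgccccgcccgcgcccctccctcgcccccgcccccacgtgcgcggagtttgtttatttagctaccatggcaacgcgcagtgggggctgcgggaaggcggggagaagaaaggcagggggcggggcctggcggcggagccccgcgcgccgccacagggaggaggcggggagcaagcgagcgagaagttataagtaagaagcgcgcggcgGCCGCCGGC
In the *Gata3* stretch the first 3 matches in capitals read as AP-2 (GCCNNNGGC) and the later 3 as KLF (GGGTG), the first 2 of which share 1 base. The *Klf4* stretch ends in 1 AP-2 match, and no searched motif was found in the *Prdm1* stretch. That *Prdm1* stretch lies inside the gene and not before its outermost start. Both strands were searched for 7 motifs, those of AP-2, KLF, GRHL, GATA, PRDM1 and NF-kB and the TATA box. Such a stretch was in the table used for 6 of the 9 genes, 8 stretches in all. *Trp63*, *Ovol1* and *Zfp750* had none. The AP-2 letters occurred in 3 of the 8 stretches, those of *Gata3*, *Grhl1* and *Klf4*, and in 18.4% of the 17768 stretches of all genes. The KLF letters occurred in 4 of the 8, those of *Gata3*, *Grhl1*, *Grhl3* and *Tfap2a*, and in 57.7% of all. None of the 8 stretches held the other motifs. The GRHL letters searched were AACNNGTT, which occurred in 3.25% of all stretches. The GATA letters were AGATAA, found in 7.21% of all, and the NF-kB letters GGNNTTTCC, found in 5.14%. For PRDM1 the letters GAAAGT were used, which 11.2% of all stretches held. The TATA box was searched as TATAAA and occurred in 8.92%. These matches describe the letters only.

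*Supt6* itself was examined first as a check of the labels. Levels are given in CPM, counts scaled to a common library size with TMM factors, and each log2 fold change is given ± its standard error. *Supt6* stood at 56.6 to 96.7 CPM in the controls and at 21.9 to 28.6 CPM in the *Supt6*-KO mice, 33.7% of the control mean (log2 fold change -1.57 ± 0.18, adjusted p = 1.3e-05 in edgeR). The groups did not overlap and differed in the direction the labels give. With library totals the value was -2.26 and with an offset for transcript length -0.66, and both passed. Counts per gene do not separate RNA of unrecombined cells from RNA of recombined alleles.

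Across the 9 transcription factors the change was unequal and went both ways. Of the 9, 2 rose in *Supt6*-KO skin (*Ovol1* and *Prdm1*), 6 fell (*Trp63*, *Klf4*, *Grhl1*, *Zfp750*, *Gata3* and *Tfap2a*) and *Grhl3* did not pass the test, at an adjusted p under 0.05 in edgeR's quasi-likelihood test. Such calls were common in these data: 34.1% of all genes tested were called higher and 36.8% lower. At 2-fold or more, 1 member was higher and 2 were lower, beside 20.9% and 24.9% of all genes. The median log2 fold change of the 9 was -0.54, against -0.072 over all genes. In 2 members every *Supt6*-KO mouse lay above every control and in 4 every one lay below, where 28.9% of all genes lay wholly above and 31.8% wholly below. With 4 and 5 mice, a two-sided exact permutation test cannot give a p below 0.0159, which these 6 genes reached. The counts of calls depend on the scaling between libraries. On library totals in place of TMM, 0 members were called higher and 7 lower, beside 2771 and 8970 of all genes. In whole skin, fewer cells of a type and less RNA per cell cannot be told apart, which bears on every value given here.

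*Supt6*-KO mouse 4 stood apart from the other 3 in several respects. Its TMM factor was 0.9098, against 0.6738 to 0.7808 in the others and 1.1979 to 1.3149 in the controls. That gap, 0.547 of the group's range, did not pass the screen for single distant mice given below. In mouse 4 the 17 terminal differentiation genes summed to 26495 CPM, close to the 23067 to 25255 CPM of the controls. The other *Supt6*-KO mice were far from this, at 46543 to 49363 CPM. *Krt10* stood at 7775 CPM in this mouse against 13622 CPM or more in every other mouse, and *Krtdap*, named after its values were seen, at 2768 CPM against 5521 CPM or more in the other *Supt6*-KO mice. Its *Krt1* (7264 CPM) and *Sprr1b* (2229 CPM) lay far above the highest controls, at 1028 and 7.35 CPM. Without this mouse all 9 members kept the side of the threshold given above.

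*Trp63*, the master regulator, fell to 43.1% of the control mean. The gene (NCBI gene 22061) spans chr16:25683763-25892088 in GRCm38 and, at 208326 bases, is the longest of the 9. The controls had 545, 478, 449, 545 and 385 CPM and the *Supt6*-KO mice 206, 219, 200 and 203 CPM. The *Supt6*-KO values lay close together, with a coefficient of variation of 3.96% against 14.2% in the controls, and none reached the lowest control. The group means of 480 ± 68.1 CPM (SD, n = 5) and 207 ± 8.20 CPM (SD, n = 4) corresponded to a log2 fold change of -1.21 ± 0.14 (adjusted p = 1.5e-05 in edgeR). Gene counts sum over the long and the N-terminally truncated isoforms of p63, which therefore could not be told apart.

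Markers of the basal layer moved with *Trp63*, but not in step with it. Of 6 basal markers 5 fell and none rose, the largest falls being those of *Itgb4* (log2 fold change -2.69) and *Krt15* (-2.65). Of all genes tested, 36.8% fell and 34.1% rose. *Krt14*, the most abundant of them over the 9 mice together although *Krt5* led in the controls, averaged 3379 ± 304 CPM in the control group and 5355 ± 2915 CPM in the *Supt6*-KO group and did not pass (adjusted p = 0.063 in edgeR). The 6 markers summed to 11169 to 12768 CPM in the controls and to 8196, 5583, 6814 and 13902 CPM in *Supt6*-KO mice 1 to 4. The sum of mouse 4 exceeded every control through *Krt14*, at 9613 CPM. In the same mouse *Krt15* (239 CPM), *Col17a1* (112 CPM) and *Itgb4* (24.9 CPM) were below every control, as was *Trp63*. None of these markers was at 0. The part of basal cell number in the fall of *Trp63* was not tested.

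*Tfap2a*, which encodes AP-2α, fell as well, but 1 mouse of the 4 lay among the controls. It spans chr13:40713802-40738238 (NCBI gene 21418). The control mice had 51.5, 39.5, 43.2, 55.3 and 49.4 CPM and the *Supt6*-KO mice 27.0, 18.4, 22.2 and 41.8 CPM. Mouse 4, at 41.8 CPM, exceeded the lowest control and the other 3 did not. The mean went from 47.8 ± 6.38 to 27.4 ± 10.3 CPM (log2 fold change -0.80 ± 0.22, adjusted p = 0.0058 in edgeR, p = 0.0317 in the two-sided exact permutation test). Without mouse 4 the log2 fold change was -1.09 (adjusted p = 6.3e-05).

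*Gata3* showed the largest fall of the 9, to 27.3% of the control mean. It spans chr2:9857078-9887953 (NCBI gene 14462), and the upstream stretch shown above lies inside this span, before one of its annotated starts. Its levels were 128, 116, 103, 141 and 112 CPM in the controls and 43.5, 36.7, 29.6 and 21.3 CPM in the *Supt6*-KO mice. Even the highest *Supt6*-KO mouse was below the lowest control by more than the whole range of either group. The means of 120 ± 14.7 and 32.8 ± 9.52 CPM gave a log2 fold change of -1.87 ± 0.20 (adjusted p = 8.0e-06 in edgeR), and -1.72 without mouse 4. Relative to *Trp63* it fell further: per 100 counts of *Trp63* there were 22.8 to 29.2 counts of *Gata3* in the controls and 10.5 to 21.1 in *Supt6*-KO skin, a ratio that needs no scaling between libraries.

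Since GATA3 is also a factor of T cells and of the inner root sheath, the markers of both are given beside it. Over all genes tested, 36.8% fell and 34.1% rose. Of 6 T cell markers 4 fell and none rose; *Cd3e* (log2 fold change -4.13) and *Cd3g* (-2.65), subunits of the T cell receptor complex, fell most, and *Cd3g* was also the most abundant. The 6 summed to 30.2 to 40.9 CPM in the controls and 7.50 to 14.7 CPM in *Supt6*-KO skin, with none at 0. Of 7 inner root sheath markers 6 fell, with *Krt71* the most abundant in the controls. The exception was *Tchh*, named here after its values were seen, which averaged 102 ± 131 CPM in the controls and 48.2 ± 25.4 CPM in *Supt6*-KO skin without a call. *Krt25*, with 11 to 12511 counts in the controls, had 0 to 3 counts in the *Supt6*-KO mice, and *Krt72*, with 0 to 4268 counts, also had 0 to 3. The sum of all 7 was 1944, 157, 640, 394 and 5.42 CPM in the controls and 15.8 to 73.6 CPM in *Supt6*-KO skin, where *Tchh* made up most of it in every mouse. Without *Tchh* the other 6 summed to 1616, 137, 557, 317 and 2.34 CPM in the controls and to 1.40 to 2.16 CPM in *Supt6*-KO skin. Control mouse 5, at 2.34 CPM just above the *Supt6*-KO mice, had 112 CPM of *Gata3*, within the range of the other controls. Hair cortex and matrix markers were lower in 6 of 6, with sums of 5.47 (control mouse 5) to 413 CPM in the controls and 0.961 to 2.05 CPM in *Supt6*-KO skin, where *Krt33b* was at 0 in all 4 mice; *Krt33a* was the most abundant. The part of T cells and of hair follicle cells in the fall of *Gata3* was not tested.

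**Figure D1:**
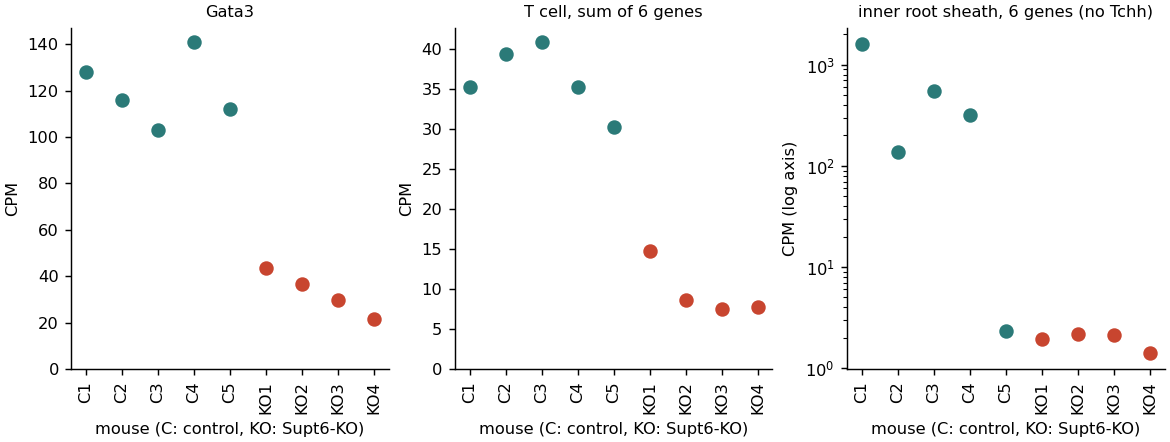
*Gata3* (left), the sum of 6 T cell markers (middle) and the sum of 6 inner root sheath markers without *Tchh* (right, log axis) in each mouse, all in CPM after TMM scaling; C1 to C5 are controls and KO1 to KO4 Supt6-KO mice. In control mouse 5 the inner root sheath sum, 2.34 CPM, lies close to the Supt6-KO mice, while its *Gata3* level, 112 CPM, lies among the controls.

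Among the factors of the suprabasal layers, *Klf4* was the most abundant and fell by less than 2-fold. KLF4, a zinc finger protein, is needed for the skin barrier. The gene (NCBI gene 16600, chr4:55527137-55532475) is the shortest of the 9, at 5339 bases. It stood at 835, 674, 663, 819 and 622 CPM in the controls and at 601, 484, 417 and 481 CPM in the *Supt6*-KO mice. The groups did not overlap, but *Supt6*-KO mouse 1 came close to control mouse 5. The log2 fold change was -0.54 ± 0.16 (adjusted p = 0.0091 in edgeR), from 723 ± 97.6 to 496 ± 76.6 CPM.

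*Zfp750*, a target of p63 that represses progenitor genes and activates differentiation genes together with KLF4, passed the test only narrowly. It lies at chr11:121510976-121519342 (NCBI gene 319530). The control values were 141, 98.5, 106, 131 and 132 CPM and the *Supt6*-KO values 79.0, 71.2, 67.5 and 123 CPM. Mice 1 to 3 were below every control and mouse 4 lay in the middle of them. The means were 122 ± 18.5 and 85.1 ± 25.5 CPM (log2 fold change -0.52 ± 0.19, adjusted p = 0.029 in edgeR, p = 0.0476 in the two-sided exact permutation test). Leaving out any 1 of 6 mice (controls 1, 4 and 5 and *Supt6*-KO mice 1, 2 and 3) ended the call, with values from -0.49 to -0.43, and leaving out *Supt6*-KO mouse 4 took it to -0.75 (adjusted p = 5.5e-04).

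The pair of Grainyhead-like factors received different calls. *Grhl1*, which controls desmosomal cadherins and hair anchorage, fell from 260 ± 15.9 to 154 ± 23.5 CPM (log2 fold change -0.76 ± 0.13, adjusted p = 2.9e-04 in edgeR). Its values were 267, 248, 258, 283 and 243 CPM in the controls and 183, 162, 134 and 135 CPM in the *Supt6*-KO mice, with a wide gap between the groups (NCBI gene 195733, chr12:24572232-24617391). *Grhl3*, which is required for barrier formation and wound closure, had 104, 111, 81.2, 113 and 106 CPM in the controls and 117, 75.1, 83.3 and 96.3 CPM in *Supt6*-KO skin (NCBI gene 230824, chr4:135541887-135573632). For *Grhl3* the highest and the lowest of the 9 mice were both *Supt6*-KO mice. Its log2 fold change was -0.15, with an interval of -0.45 to 0.15 (2 standard errors either way) and an adjusted p of 0.39 in edgeR, which does not show that it was unchanged. The difference between the pair was described by ratios of counts and not tested: per 100 counts of *Grhl1* there were 31.5 to 44.7 counts of *Grhl3* in the controls and 46.2 to 71.2 in the *Supt6*-KO mice, with no overlap.

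*Ovol1*, a zinc finger repressor that takes keratinocytes out of the cell cycle, rose. It lies at chr19:5549137-5560575 (NCBI gene 18426). The controls had 68.1, 64.5, 57.2, 72.0 and 63.3 CPM and the *Supt6*-KO mice 148, 98.3, 99.7 and 128 CPM. All 4 *Supt6*-KO mice exceeded the highest control. The mean rose from 65.0 ± 5.53 to 118 ± 23.9 CPM, a log2 fold change of 0.86 ± 0.14 (adjusted p = 2.0e-04 in edgeR). Mouse 4, which stood near the controls in *Zfp750* and *Tfap2a*, had the second highest *Ovol1* level.

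*Prdm1*, which had the lowest control level of the 9 per transcript length, had the largest rise, to 220% of the control mean. BLIMP1, its product, is a repressor of the granular layer and the sebaceous gland and, outside the epidermis, of plasma cells, T cells and macrophages. The gene spans chr10:44437174-44528558 (NCBI gene 12142), and the upstream stretch shown above lies inside this span, before one of its annotated starts. Control mice had 31.8, 25.1, 28.0, 36.6 and 34.1 CPM and *Supt6*-KO mice 70.1, 94.4, 70.3 and 39.1 CPM. Mouse 4 lay just above the highest control, and the other 3 well above it. The means of 31.1 ± 4.65 and 68.5 ± 22.7 CPM gave a log2 fold change of 1.14 ± 0.21 (adjusted p = 5.7e-04 in edgeR), and 1.33 without mouse 4.

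Markers of the other cell types known to use *Prdm1* moved in different directions. Among all genes tested, 34.1% rose and 36.8% fell. Of 5 B and plasma cell markers tested 2 rose and none fell. These 5 summed to 0.487 to 0.739 CPM in the controls and 1.37 to 2.61 CPM in *Supt6*-KO skin. *Ms4a1* did not reach the filter. Of 6 myeloid markers 5 rose and *Csf1r* fell (-1.83); the rises were led by *Csf3r* (4.08) and *Lyz2* (2.79), the most abundant. Their sum was 123 to 223 CPM in the controls and 673, 695, 983 and 489 CPM in *Supt6*-KO mice 1 to 4. It was made up mostly of *Lyz2*. Sebocyte markers fell in 4 of 5 (*Mc5r*, -3.61, and *Scd3*, -1.68, most; *Elovl3* most abundant), from 350 to 440 CPM down to 101 to 266 CPM in sum. The groups overlapped for *Scd3*, with 5.32, 8.71, 3.76, 31.3 and 29.9 CPM in the controls and 3.80 to 6.77 CPM in *Supt6*-KO skin. No marker of these lists was at 0 in every mouse. The part of myeloid cells, plasma cells and sebocytes in the rise of *Prdm1* was not tested.

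Scaling between libraries mattered for the 2 rises. TMM scaling sets the bulk of the genes level between groups, whereas scaling by library totals put the median gene at a log2 fold change of -0.76, with 2771 genes called higher and 8970 lower in place of 5608 and 6050. On library totals *Ovol1* had a log2 fold change of 0.19 and *Prdm1* of 0.39, and neither passed (adjusted p = 0.38 and 0.076 in edgeR), while *Grhl3* passed as lower (-0.83). Relative to the median of all genes, *Ovol1* was higher by 0.94 with TMM and by 0.95 with library totals, and *Prdm1* by 1.21 and 1.15. The falls relative to that median were -1.14 and -1.15 for *Trp63* and -1.80 and -1.83 for *Gata3*. The directions given here are therefore relative to the other genes of the same skin.

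Annotated transcript length mattered for a different set. With an offset for the trend of fold change with length, 3 members moved across the threshold or across 0: *Grhl1* went to -0.22 (adjusted p = 0.16 in edgeR), *Zfp750* to 0.04 and *Grhl3* to 0.29, neither of the last pair past the threshold. *Trp63* kept its call at -0.57 and *Prdm1* at 1.72. *Gata3* and *Klf4*, whose annotated transcripts have median lengths of only 509 and 859 bases, moved the other way, to -2.25 and -0.73. The annotated median of *Grhl1* is 3183 bases. Deposited counts and TPM (abundance per transcript length) imply similar lengths for *Gata3* and *Grhl1* instead. In control mouse 1 they had 4791 counts at 70.3 TPM and 9990 counts at 142 TPM. The opposite moves of these 2 genes therefore rest on the annotated lengths.

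Ratios of raw counts inside a library need no scaling between libraries, but they carry the trend with length. Per 100 counts of *Trp63* there were 12.5 to 16.5 counts of *Ovol1* in the controls and 44.9 to 71.7 in *Supt6*-KO skin, 5.24 to 8.87 against 19.3 to 43.2 counts of *Prdm1*, and 141 to 162 against 208 to 291 counts of *Klf4*. All 3 ratios separated the groups. Each of these suprabasal factors thus gained on *Trp63* in counts, although *Klf4* itself fell. With the length offset the order of *Klf4* and *Trp63* turned, at -0.73 and -0.57. This turn rests on annotated median lengths of 859 and 3662 bases. Deposited values imply lengths closer together, with 31232 counts at 487 TPM for *Klf4* and 20388 at 202 TPM for *Trp63* in control mouse 1. *Grhl1* and *Klf4* kept overlapping ratios, with 32.0 to 39.1 counts of *Grhl1* per 100 of *Klf4* in the controls and 28.1 to 33.5 in *Supt6*-KO skin. The ratio of *Prdm1* to *Ovol1* overlapped too: it was 38.9 to 53.9 per 100 in the controls and spread from 30.6 in mouse 4 to 96.1 in mouse 2.

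The order of levels among the 9 was compared per transcript length, in TPM (transcript abundance scaled to a common sum), and within each group only. In control skin *Klf4* led at 421 ± 73.0 TPM (SD, n = 5), followed by *Trp63* at 177 ± 27.1 and *Grhl1* at 138 ± 17.2 TPM. *Trp63* exceeded *Grhl1* in all 5 controls, although their ranges overlapped. *Zfp750*, *Grhl3* and *Gata3* came next at 66.9 ± 16.7, 66.5 ± 12.9 and 66.0 ± 12.3 TPM and did not differ beyond their spread. *Ovol1* (40.1 ± 6.62 TPM), *Tfap2a* (26.2 ± 5.97 TPM) and *Prdm1* (10.2 ± 2.60 TPM) closed the order, each above the next in every control, although the ranges of *Ovol1* and *Tfap2a* overlapped.

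In *Supt6*-KO skin the order was another. *Klf4* again led, at 106 ± 34.2 TPM (SD, n = 4), and the next places were close: *Grhl1* (29.4 ± 7.64), *Trp63* (28.1 ± 7.73), *Ovol1* (27.1 ± 11.1), *Grhl3* (22.1 ± 8.52) and *Zfp750* (17.8 ± 10.6 TPM). *Trp63*, the second in control skin, did not differ beyond the spread from *Grhl1* or *Ovol1* here, each pair being ordered the same way in only 2 of 4 mice. *Gata3*, at 6.31 ± 1.73 TPM, stood with *Prdm1* (7.58 ± 1.19) and *Tfap2a* (5.80 ± 3.86 TPM) at the end of the order, the 3 not differing beyond their spread. TPM was deposited for *Supt6*-KO mouse 4 and the controls; for the other 3 it was recomputed from the counts. The mean TPM of all 9 was lower in *Supt6*-KO than in control skin, that of *Ovol1* and *Prdm1* included, so the direction of these 2 rises turned on that scale. TPM is scaled to a fixed sum with no factor such as TMM, and no test was made on it.

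The 9 genes also differed in how alike the mice were. The coefficient of variation was larger in *Supt6*-KO than in control mice for 8 of the 9 and smaller for *Trp63* alone. It rose for example from 13.3% to 37.5% for *Tfap2a* and from 8.51% to 20.2% for *Ovol1*. Mouse 4 carried much of this for 2 genes. *Tfap2a* stood at 41.8 CPM in mouse 4 and at 18.4 to 27.0 CPM in the other *Supt6*-KO mice. *Zfp750* stood at 123 CPM in mouse 4. In the other *Supt6*-KO mice it was at 67.5 to 79.0 CPM, closer together than the controls at 98.5 to 141 CPM. Profiles over the 9 mice, each expressed as log2 CPM less its own control mean, were compared by their root mean square difference. *Klf4* and *Grhl1* were the closest pair, at 0.18, followed by *Zfp750* and *Tfap2a* at 0.25, both of which had mouse 4 near the controls. *Prdm1* and *Gata3* were farthest apart, at 2.01. *Ovol1* and *Prdm1*, the 2 that rose, differed by 0.46.

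The same measure over 13564 genes with a mean of at least 1 CPM found the nearest profiles of any gene. For *Trp63* these were *Cerk* (0.116), *Tnk1* (0.129) and *Klhl26* (0.135), and for *Gata3* they were *Ctsf* (0.120), *Sbk1* (0.135) and *Lrrc61*. The profile nearest to *Ovol1* was that of *Clock*, a circadian transcription factor (0.130), before *Nras* and *Shf*; nearest to *Prdm1* was *Cnot6l*, a subunit of the mRNA deadenylase complex (0.158), before *Cln8* and *Atp13a5*. *Klf4* was closest to *Tbc1d22a* (0.096), *Trim29* and *Yipf3*, and *Grhl1* to *Usp20* (0.051), *Borcs5* and *Ssh3*. *Grhl3* had *Gp1bb* (0.098), *Stk4* and *Axin1* nearest, *Zfp750* had *Bend3* (0.087), *Galnt4* and *Ahctf1*, and *Tfap2a* had *Gtf3c2* (0.071), *Diaph1* and *Dhx8*. No member was among the 3 nearest genes of another.

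Relatives of the 9 from the same gene families fell more often than they rose. Of 11 family members tested 7 fell, 1 rose and 3 had no call, with a median log2 fold change of -0.87 (36.8% of all genes tested fell and 34.1% rose). On library totals 10 fell and none rose, and with the length offset 4 fell and 2 rose. The p63 relatives *Trp53* and *Trp73*, which encode p53 and p73, both had -0.87 (adjusted p = 0.0091 and 4.0e-04 in edgeR). *Tfap2b* fell from 54.4 ± 9.74 to 16.8 ± 3.61 CPM (-1.69), whereas its relative *Tfap2c* stood at 68.5 ± 7.11 and 75.6 ± 13.0 CPM (0.14, adjusted p = 0.36). *Klf5*, a factor of proliferating epithelial cells, fell from 49.2 ± 6.41 to 24.6 ± 9.62 CPM, *Klf6* rose (0.50), and *Klf3* did not pass (-0.21). *Grhl2* fell by 0.56 on the log2 scale, so that *Grhl3* was the only one of the 3 family members measured without a call. *Prdm16* (-1.57) and *Gata6* (-1.52) fell, and *Ovol2*, at about 4 CPM in both groups, had no call (-0.13).

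Other transcription factors of the epidermis were split: of 19 tested, 6 rose, 10 fell and 3 had no call, with a median of -0.39, where 34.1% of all genes tested rose and 36.8% fell. Among the rises were *Elf3* (log2 fold change 3.79), *Elf5* (1.62) and *Ehf* (0.53), which form an epithelial branch of the ETS family, with *Barx2* (2.04), the homeodomain-only protein *Hopx* (1.76) and the Notch target *Hes1* (0.43). *Barx2* rose from 35.9 ± 5.07 to 148 ± 25.8 CPM, and *Elf3* from 1.09 ± 0.206 to 15.1 ± 14.2 CPM. Mouse 4 carried much of that mean, with 36.3 CPM of *Elf3*, and the other 3 averaged 8.01 ± 1.14 CPM, above every control. *Satb1*, a chromatin organizer and known target of p63, fell from 35.3 ± 3.39 to 2.47 ± 0.518 CPM (-3.83), and the homeobox genes *Msx2* (-2.97) and *Dlx3* (-1.17) fell too. The POU factors *Pou2f3* (-1.46) and *Pou3f1* (-1.32), the vitamin D receptor *Vdr* (-1.74) and *Casz1* (-1.19) all fell by more than 2-fold. *Maf* (-0.63) and *Cebpa* (-0.49) fell by less, and *Cebpb* (0.23) and *Cebpd* (-0.23) had no call.

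The chromatin partners through which ZNF750 acts were listed as 4 genes, 2 of which rose and 2 of which fell, where 34.1% of all genes tested rose and 36.8% fell. *Kdm1a*, a histone demethylase, had a log2 fold change of 0.30 and *Ctbp2*, a corepressor, of 1.04. *Rcor1* had -0.57 and *Ctbp1*, the most abundant of the 4, -0.32 (adjusted p = 0.035 in edgeR). Only 1 gene was called lower with DESeq2 or when control mouse 1, 2 or 4 or *Supt6*-KO mouse 2 or 3 was left out. On library totals none rose and 3 fell. With the length offset 1 rose and 1 fell, and with upper-quartile factors or with mouse numbers as a block 1 rose and 2 fell.

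Genes bound by p63, epithelial genes linked to the Grainyhead-like factors and genes of terminal differentiation were taken as 3 lists. They were not lists of the targets of all 9 factors. Of 22 genes that p63 is known to bind, 15 fell, 2 rose and 5 had no call, with a median log2 fold change of -1.06, where 36.8% of all genes tested fell and 34.1% rose. Of the 22, 11 fell by 2-fold or more, beside 24.9% of all genes. On library totals 17 fell and 1 rose, and with the length offset 13 fell and 4 rose. *Fras1*, a basement membrane protein, went from 9.89 ± 5.13 to 0.741 ± 0.373 CPM (-3.75), and *Itgb4*, the integrin subunit of hemidesmosomes, from 109 ± 30.0 to 16.9 ± 6.04 CPM (-2.69). The exceptions that rose were *Perp* (1.55), a desmosomal protein and the most abundant of the list over the 9 mice together, and *Sfn* (1.08), which encodes 14-3-3σ. Of the 6 basal markers 5 belong to this list too, so the 2 lists are not separate evidence.

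Epithelial genes linked to the Grainyhead-like factors gave 2 higher, 4 lower and 4 without a call of 10, and a median of -0.33 (1 higher and 7 lower on library totals, 2 higher and 2 lower with the length offset). Of all genes tested, 34.1% were higher and 36.8% lower. *Rab25*, a regulator of vesicle recycling, rose from 129 ± 19.6 to 380 ± 17.1 CPM (log2 fold change 1.56) and *Spint1*, a protease inhibitor, from 62.9 ± 8.60 to 98.7 ± 2.82 CPM (0.65). *Dsp*, the desmosomal plaque protein and the most abundant of the 10, fell from 2133 ± 446 to 822 ± 60.5 CPM (-1.37), and *Arhgef19*, a target of GRHL3 in cell polarity, fell by 1.35 on the log2 scale.

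Of 17 terminal differentiation genes 9 rose, 3 fell and 5 had no call, with a median log2 fold change of 0.65; on library totals 8 were higher and 8 lower, and with the length offset 12 and 3. The shares over all genes tested were 34.1% higher and 36.8% lower. *Sprr1b*, a cornified envelope precursor, had 7.85 and *Krt1*, a keratin of the spinous layer, 3.65. *Lor* (-1.23) and *Aloxe3* (-1.11), both of the granular layer, were among those that fell, and *Krt10*, the most abundant, had no call. In the same libraries the median of the p63-bound genes was negative and that of the terminal differentiation genes positive. Of the 6 suprabasal factors *Klf4*, *Grhl1* and *Zfp750* fell, *Ovol1* and *Prdm1* rose and *Grhl3* had no call.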

How the data were processed

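The authors sequenced RNA on the DNBSEQ platform, aligned paired reads to mm10 with Bowtie2 (2.3.4.3) and ran RSEM (1.3.1), whose estimated counts they deposited for 9 mice without normalization between them. The annotation release and the strand setting are not given in the sources used here, so reads of overlapping antisense genes cannot be told apart. The authors also deposited TPM for 6 mice; for the other 3 it was recomputed from counts and the lengths implied by the deposited values, and on the 1 *Supt6*-KO mouse with both it differed by at most 4.19% for the members. TPM was used only for the order of levels. Columns with the authors' own comparisons were not used.

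Estimated counts were rounded to whole numbers. Genes with a sum of at least 10 were scaled by TMM and tested with edgeR 4.0.16 (R 4.3.3; quasi-likelihood, no covariate, Benjamini-Hochberg adjustment over 16426 genes). A call is an adjusted p under 0.05. A standard error is the absolute log2 fold change divided by the square root of F. Single values were also compared by a two-sided exact permutation test of mean CPM. Of 17943 genes, 17917 matched RefSeq (GRCm38.p6), the source of coordinates and upstream sequences. Motifs were searched in the 250 bases before each start, without the 50 after it.

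Groups and mouse numbers come from the sample labels. The members, the lists and the rule for named genes (all members, families, epidermal factors and cofactors; in other lists the 2 largest rises and falls and the most abundant gene; the 3 nearest profiles) were chosen with earlier results of these data known. The single values of 3 listed genes are not reported here. The 17 alternatives were a length offset, a replicate block, library totals, upper-quartile factors, 2 other filters, DESeq2 1.42.0, leaving out the 50 genes of highest abundance and leaving out each mouse in turn. Python 3.11.15 and pandas 2.3.3 were used for summaries.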

Additional observations from a re-analysis of the deposited data

Results flagged for a closer look

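Of 24 groups of 4 or 5 mice that were examined (the members, *Supt6*, library totals and TMM factors), 1 held a single distant mouse, and chance alone would give 1.20 such groups. *Grhl3* stood at 81.2 CPM in control mouse 3, against a control median of 106 CPM, a gap to the next control of 0.729 of the group's range. A group of 4 mice needs a wider gap than one of 5, and *Zfp750* in *Supt6*-KO mouse 4, with a gap of 0.791 of the range, did not pass. Without control mouse 3 *Grhl3* had no call either.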

How the results depend on the processing

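Of the 9 members, *Trp63*, *Klf4*, *Gata3* and *Tfap2a* kept direction and call in all 17 alternatives, with log2 fold changes of -1.91 to -0.57, -1.23 to -0.47, -2.59 to -1.72 and -1.45 to -0.59. With library totals *Grhl3* passed at -0.83, *Ovol1* (0.19) and *Prdm1* (0.39) did not, 0 members were higher, 2771 genes in all were higher, and 0 members lay wholly above and 7 wholly below the controls. With upper-quartile factors 1 member lay wholly above. With the length offset *Grhl1* was at -0.22 without a call, and *Grhl3* (0.29) and *Zfp750* (0.04) changed sign without a call. The median of all genes was -0.759 with library totals and 0.0493 with the offset, against -0.072. With 1 mouse left out *Zfp750* ranged from -0.75 to -0.43 and lost its call in 6 of 9 fits; no other member changed its call in these fits.

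Of the list counts, 22 of 204 differed by more than 1.5 times from those given, 6 of them with library totals and 6 with the length offset. Deviations of same-numbered mice had a mean correlation of 0.0793 over 4 pairs, and of other pairs -0.0165 over 16. The same-numbered values, -0.00856 to 0.159, lay within those of the other pairs, -0.178 to 0.178. With 4 pairs this cannot decide whether the numbers pair the mice. With a replicate block 2 members were higher and 6 lower, as without it, with *Trp63* at -1.28 and *Gata3* at -1.93, and 5251 genes were higher and 5800 lower in all. No member had fewer than 384 counts in any mouse.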

Other observations

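Lists of other skin cells were measured beside the 9 factors. Of all genes tested, 34.1% rose and 36.8% fell. Calls for the cell type lists are given with TMM scaling only. Of 6 melanocyte markers 5 rose, led by *Tyr* (log2 fold change 2.27) and *Dct* (1.63), and *Mitf* fell (-0.40). All 5 endothelial markers fell (*Cdh5*, -2.11, most), as did 4 of 5 skeletal muscle markers (*Myh4*, -4.38), 4 of 5 adipocyte markers (*Lep*, -3.04), 4 of 6 fibroblast markers (*Col1a1*, -3.64) and the 4 cartilage markers tested (*Col2a1*, -3.86). Of 6 suprabasal keratinocyte markers 3 rose, among them *Ivl* (1.99), and *Lor* fell. All 6 belong to the terminal differentiation genes given above, so they are not separate evidence.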
